A study of Homo sapiens with 10 samples.

Results

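The genes described here are 48 human genes of DNA replication and S phase. They cover origin licensing and firing, the replicative helicase, the polymerases and their clamp, nucleotide supply, chromatin behind the fork and the E2F factors that control many of the others. They were taken by symbol from a count table of 22003 features. No measured value entered the rule, but earlier results of these data were known when the list was made. All 48 were among the 14799 features that passed the filter on low counts. The RNA came from HaCaT cells, a spontaneously immortalised line of human keratinocytes; its genotype is labelled WT. Irradiated LBP cells (n = 3) had 24 h of LBP, the polysaccharide-glycoprotein of Lycium barbarum (the goji berry plant), and then a dose of 12 Gy. Irradiated vehicle cells (n = 3) had 24 h of vehicle and the same dose. LBP cells (n = 2) and vehicle cells (n = 2) had the corresponding pretreatment and no radiation. RNA was taken 3 h after irradiation, so the irradiated groups show an early time only. All groups are 1 cell line. Libraries are labelled as numbered repeats, with no word on whether each was its own culture, so p-values here reflect spread between libraries that may be technical.

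Before S phase, the origin recognition complex, CDC6 and CDT1 load the MCM2-7 helicase onto DNA. CDC45 and the GINS complex then turn it into the active helicase, and polymerases held by the ring-shaped clamp PCNA copy both strands. Activating E2F factors switch on most of these genes near the boundary of G1 and S phase, in keratinocytes as in other dividing cells, and later E2F factors such as E2F8 repress them again. Ionising radiation activates checkpoints that hold cells in G1, slow S phase and stop entry into mitosis.

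Library totals ran from 31830506 to 62986831 counts, of which the 48 genes held 0.586% to 0.666%. Levels between libraries are given as CPM, counts scaled to the size of each library with TMM factors. Differences are log2 fold changes ± standard error (SE) from edgeR's quasi-likelihood test, and a gene is called at an adjusted p under 0.05 over all 14799 features. All 10 keratinocyte markers examined averaged at least 1 FPKM (the authors' unit, scaled by gene length and library size), with summed levels of 4650 to 5890 FPKM per library. The labels give the source as mucosa, and the 5 markers of simple and mucosal epithelium, which cultured keratinocytes also express in part, summed to 2690 to 3700 FPKM. Fibroblast, endothelial and melanocyte markers each summed to at most 1.49 FPKM, and leukocyte markers to 6.43 to 10 FPKM. Of the 5 leukocyte markers, 1 averaged at least 1 FPKM. Spread between libraries of a group was small for the 48 genes, with a coefficient of variation of CPM from 1.97% to 12.8% and a median of 6.18%.

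The genes were well expressed in all groups, as levels per length show. PCNA was the highest at 306 ± 26.0 FPKM (SD over the 10 libraries). MCM7, a helicase subunit, followed at 220 ± 21.4 FPKM, the salvage enzyme TK1 at 150 ± 10 FPKM and MCM4 at 102 ± 7.71 FPKM. The lowest were E2F2 at 4.81 ± 0.717 FPKM, the chromatin assembly subunit CHAF1B at 6.27 ± 0.495 FPKM and the checkpoint adaptor CLSPN at 6.69 ± 0.652 FPKM. PCNA and MCM7 did not overlap with each other or with TK1 in any library, whereas RRM1 at 88.0 ± 5.32 FPKM, MCM2 at 85.9 ± 6.61 FPKM and FEN1 at 83.6 ± 8.31 FPKM could not be ordered beyond their spread. In all, 45 of the 48 lay above 8.45 FPKM, the median of the 11983 features with a mean of at least 0.5 FPKM. RPA3, the small subunit of the single-strand binding protein RPA, differed between the deposited units, with a coefficient of variation within groups of 24.1% in FPKM and 6.22% in CPM.

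Promoters are shown because letters that E2F factors are known to bind are a feature that many of these genes share. Windows from 250 bases before to 50 bases after the RefSeq start (GRCh38.p14) were available for 41 of the 48 genes. The letters TTTCGCGC, TTTGGCGC, TTTCCCGC and TTTGCCGC were searched on both strands. At least 1 of them was found in 23 of the 41 genes (56.1%) or 24 of their 53 windows (45.3%). Across all tested genes with a window the share was 6.57% of 10709, and across all 35116 windows of the table it was 3.31%. The cell cycle homology region of G2 and mitosis promoters (TTTGAA or TTCGAA, both strands) was found in 3 of the 41 genes (7.32%), against 15.6% of tested genes, and in 24 of 31 genes of a G2 and mitosis list (77.4%). The CCAAT box (CCAAT, both strands) was found in 61.0% of the 41 genes and 43.3% of tested genes. A match describes letters and is not evidence of binding. The 6 promoters printed are of genes with an E2F match. TYMS is shown as a called gene. The rest had the smallest p among genes with a match for irradiation averaged over both pretreatments, where 0 of 48 were called. The sequences run from 150 bases before to 30 after the start and read 5′ to 3′ on the gene's strand. They have the matched E2F letters of either strand in capitals. TYMS is at chr18:657503-657682 (plus strand), CDC6 at chr17:40287729-40287908 (plus), E2F2 at chr1:23531204-23531383 (minus), E2F1 at chr20:33686356-33686535 (minus), DTL at chr1:212035598-212035777 (plus) and POLA1 at chrX:24693768-24693947 (plus).
TYMS: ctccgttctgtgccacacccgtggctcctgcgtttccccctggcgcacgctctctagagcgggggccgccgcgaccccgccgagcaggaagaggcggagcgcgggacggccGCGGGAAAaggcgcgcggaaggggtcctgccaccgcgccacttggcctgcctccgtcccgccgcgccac
CDC6: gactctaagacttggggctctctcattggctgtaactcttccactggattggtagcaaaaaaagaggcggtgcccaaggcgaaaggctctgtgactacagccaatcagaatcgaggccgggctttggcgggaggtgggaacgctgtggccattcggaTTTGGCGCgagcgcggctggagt
E2F2: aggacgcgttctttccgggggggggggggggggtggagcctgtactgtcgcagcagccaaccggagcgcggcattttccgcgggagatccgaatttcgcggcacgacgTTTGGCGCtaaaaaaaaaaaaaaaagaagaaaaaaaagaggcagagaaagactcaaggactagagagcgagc
E2F1: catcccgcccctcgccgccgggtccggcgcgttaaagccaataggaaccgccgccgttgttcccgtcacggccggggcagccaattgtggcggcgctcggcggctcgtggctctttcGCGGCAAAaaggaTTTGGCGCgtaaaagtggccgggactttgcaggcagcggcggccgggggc
DTL: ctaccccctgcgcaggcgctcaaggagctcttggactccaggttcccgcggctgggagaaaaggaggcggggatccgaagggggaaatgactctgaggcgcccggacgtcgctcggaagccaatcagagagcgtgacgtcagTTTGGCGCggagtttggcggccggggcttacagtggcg
POLA1: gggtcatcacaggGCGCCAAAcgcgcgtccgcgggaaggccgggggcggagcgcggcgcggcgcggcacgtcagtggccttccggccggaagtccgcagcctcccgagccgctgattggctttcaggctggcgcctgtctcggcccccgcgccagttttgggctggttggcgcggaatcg
E2F1 held a pair of matches within the 33 bases before its start, 1 on each strand. The match in TYMS began 39 bases before the start, that in E2F2 42 bases, that in DTL 8 bases and that in POLA1 137 bases, and that in CDC6 lay after the start.

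The comparisons of irradiated with non-irradiated cells ask what 12 Gy did to these genes within 3 h. No gene of the 48 changed by the test in either background. In vehicle cells, 0 of 48 were called, against 0.439% of all features, and DESeq2 also called 0, against 0.728% of the features it tested. At an unadjusted p under 0.05, 5 were higher and 0 lower, against 3.32% and 3.59% of features. In LBP cells, 0 of 48 were called, against 0.142% of all features. There, 1 was higher and 3 were lower at an unadjusted p under 0.05, against 6.62% and 6.91% of features, and DESeq2 called 1, E2F2, against 1.7%. The median difference of the 48 genes was 0.015 in vehicle cells, with 27 above 0 and 21 below, and -0.044 in LBP cells, with 16 above 0 and 32 below. The medians of all features were 0.0019 and 0.0021. Both medians rest on single libraries: in vehicle cells the median was -0.00637 without irradiated vehicle replicate 3 and 0.0614 without vehicle replicate 2, and in LBP cells it was -0.11 without LBP replicate 1 and -0.000698 without LBP replicate 2. Irradiated vehicle libraries lay wholly above vehicle libraries for 16 genes and wholly below for 4, against 13.8% and 13.9% of features, and irradiated LBP libraries lay wholly above LBP libraries for 3 and wholly below for 8, against 14% of features each way.

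The intervals bound how large a change the libraries could hide. For the mean of the 2 irradiation contrasts, the 95% intervals of all 48 genes lay within 1.5-fold in both directions, where 78.0% of all features did, and their outer bounds were -17.3% and 28.9%. The median SE was 0.0599 over the 48 genes and 0.0812 over all features. Most of the 48 lay above the median level of expressed features, and shares among features of like level were not computed in any comparison. With this mean, 0 of 48 were called, against 0.561% of features. At an unadjusted p under 0.05, 6 were higher and 3 lower, against 6.06% and 5.41% of features, and DESeq2 called 1, CDC6, with an adjusted p of 0.0492, against 1.81% of features. In vehicle cells alone all 48 intervals lay within 1.5-fold, where 70.7% of all features did, with outer bounds of -20.9% and 40.2%. In LBP cells 47 of 48 did, against 68.4% of all features, E2F2 being the exception.

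**Figure D1:**
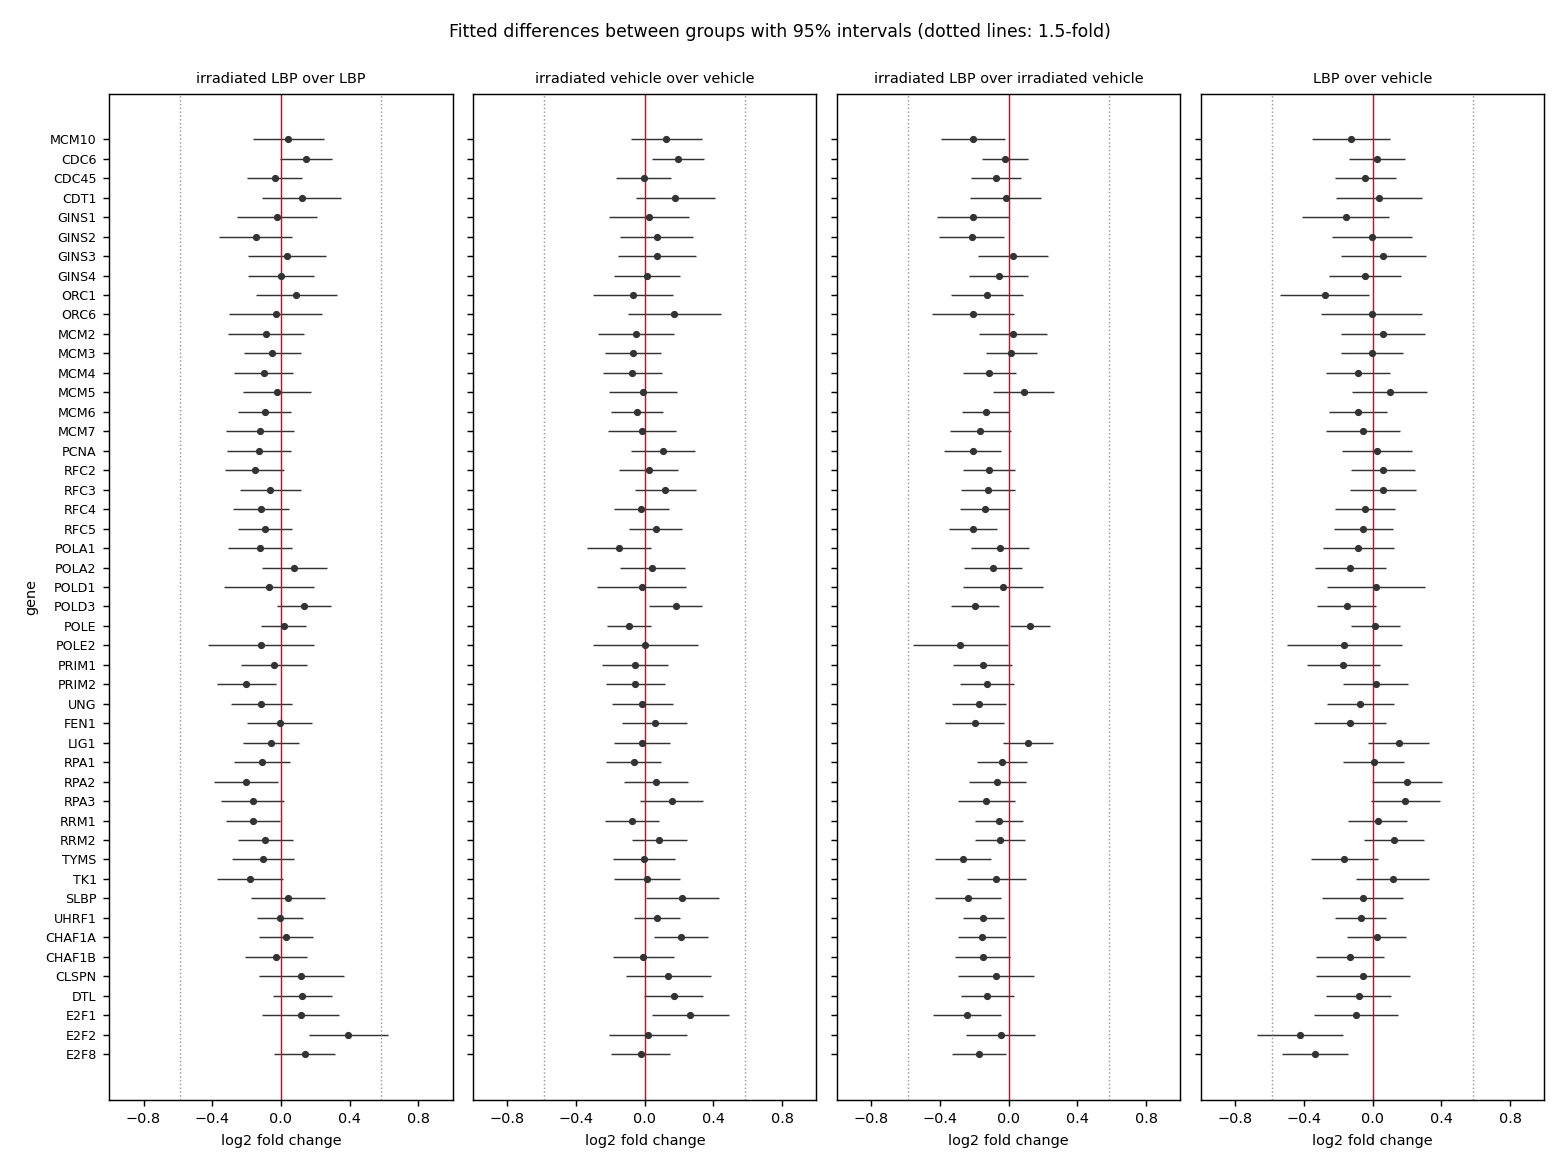
Fitted log2 fold changes (x axis) of the 48 genes (y axis, by role) in the 4 comparisons between groups, as points with 95% intervals from edgeR; dotted lines mark 1.5-fold. The interval of 1 gene, E2F2, reaches past 1.5-fold for irradiated LBP over LBP and again for LBP over vehicle, and none does for the other pair of comparisons.

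Genes of G2 and mitosis did change in the same libraries. Of 38 such genes, 26 fell with irradiation in vehicle cells (median -0.54), against 0.439% of all features called, and 9 fell in LBP cells (median -0.39), against 0.142%, and none rose. At an unadjusted p under 0.05, 35 were lower in vehicle cells and 35 in LBP cells, against 3.59% and 6.91% of features. DESeq2 called 30 and 32 lower, against 0.728% and 1.7% in either direction. The test of whether the irradiation effect differed between vehicle and LBP cells called 0 of the 38, against 0.0135% of features. Members of the list were chosen with earlier results of these data known, so their direction is a description. CCNB1, the cyclin that drives entry into mitosis, averaged 230.4 ± 2.70 CPM in irradiated vehicle cells and 366 ± 5.99 CPM in vehicle cells (SD, n = 3 and 2), a change of -0.67 ± 0.075 (adjusted p = 0.00115). CDKN1A, an inhibitor of the kinases of S phase, averaged 145 ± 12.1 CPM in irradiated vehicle cells and 118 ± 14.3 CPM in vehicle cells, a difference of 0.30 ± 0.21 (adjusted p = 0.842). In irradiated LBP libraries it stood at 225.1, 125.9 and 244.3 CPM, and in LBP libraries at 159.6 and 147.1 CPM, so that irradiated LBP replicate 2 lay below every LBP library. The difference was 0.37 ± 0.21 with irradiation in LBP cells (adjusted p = 0.447) and 0.46 ± 0.18 with LBP in irradiated cells (adjusted p = 0.178). Without irradiated LBP replicate 2 both were called, at 0.614 (adjusted p = 0.0332) and 0.696 (adjusted p = 0.00222). CDKN1A came from a list of 12 p53 target genes, and had the highest value of the list with LBP in irradiated cells. The list's median was 0.031 with irradiation in vehicle cells, 0.137 in LBP cells and 0.058 with LBP in irradiated cells. With irradiation 0 of the 12 were called. With LBP in irradiated cells 1 was called, lower, against 4.36% of features in either direction. In bulk RNA, fewer cells in a phase and less RNA per cell cannot be told apart.

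**Figure D2:**
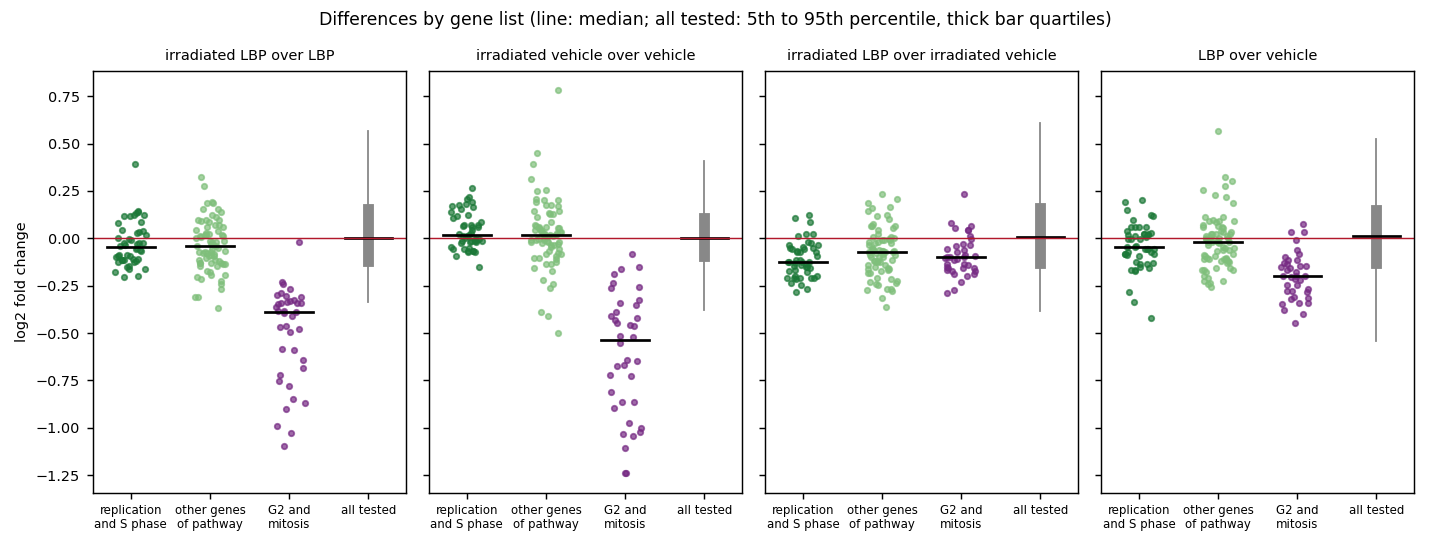
Log2 fold changes (y axis) in the 4 comparisons for the 48 replication and S phase genes, 74 other genes of the pathway and 38 genes of G2 and mitosis, each point a gene and each line a median; the bars at right give quartiles and the 5th to 95th percentile of all tested features. The G2 and mitosis genes lie below 0 with irradiation (medians -0.39 and -0.54), while the replication genes centre at -0.044 and 0.015. With LBP the medians in irradiated and non-irradiated cells are -0.0999 and -0.201 for G2 and mitosis genes, and -0.125 and -0.046 for replication genes.

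The comparisons of LBP with vehicle ask what the pretreatment did, with and without radiation. In irradiated cells the 48 genes lay slightly lower with LBP, at a median of -0.125 (all features 0.0051), and 42 of 48 were below 0 (87.5%, against 48.9% of all features). The 38 genes of G2 and mitosis lay lower too, at a median of -0.0999 with 31 below 0 (81.6%). None of the 48 genes passed the test over all features: 0 of 48 were called, against 4.36%. At an unadjusted p under 0.05, 1 gene was higher and 14 were lower, against 11.7% and 9.98% of features, and DESeq2 called 2 lower, RFC5 and TYMS, against 9.69% in either direction. The 3 irradiated LBP libraries lay wholly below the 3 irradiated vehicle libraries for 19 genes and wholly above for 2, against 13.6% and 13.9% of features. All 48 intervals lay within 1.5-fold, where 69% of all features did, with outer bounds of -32.1% and 20.1%.

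Without radiation the median difference was -0.046, with 19 genes above 0 and 29 below. Again 0 of 48 were called by edgeR, against 0.804% of features. At an unadjusted p under 0.05, 0 were higher and 3 lower, against 6.97% and 6.56% of features, and DESeq2 called 2 lower, E2F2 and E2F8, against 2.97% in either direction. The LBP libraries lay wholly above the vehicle libraries for 4 genes and wholly below for 16, against 23.2% and 22.3% of features. The median rests on single libraries, since it was 0.029 without LBP replicate 1 and -0.11 without LBP replicate 2.

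Over the mean of both LBP contrasts, 2 of the 48 genes fell, E2F8 and TYMS, against 2.93% of features called lower, and 0 rose, against 3.99%. The share called in either direction was 6.93% of features and 2 of the 48 genes. Without irradiated vehicle replicate 1 the count was 0, without irradiated LBP replicate 2 it was 5, and without any other single library it was 1. At an unadjusted p under 0.05, 15 were lower and 1 higher, against 10.6% and 12.6% of features, and the median was -0.093 with 36 of 48 below 0. DESeq2 called 4 lower, adding E2F2 and POLD3, against 10.7% of features in either direction. The summed level of the 48 genes was 6005 ± 216 CPM in irradiated LBP cells, 6428 ± 176 CPM in irradiated vehicle cells, 6268 ± 428 CPM in LBP cells and 6326 ± 95.5 CPM in vehicle cells (SD, n = 3, 3, 2 and 2).

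The test of whether the LBP effect differed with radiation called 0 of 48 genes, against 0.0135% of features, and DESeq2 called 0, against 0.121%. At an unadjusted p under 0.05, 1 was higher, E2F2, and 2 lower, RPA2 and RPA3, against 3.93% and 4.26% of features. The median of this interaction was -0.053, with -0.135 without LBP replicate 1 and -0.0197 without LBP replicate 2. The irradiation and LBP comparisons share groups of libraries, so their values are not independent of one another. Of the 38 genes of G2 and mitosis, 1 was called lower with LBP in irradiated cells, against 4.36% of features called in either direction, 0 in non-irradiated cells, against 0.804%, and 8 over the mean LBP effect, against 2.93% called lower. DESeq2 called 3, 7 and 18 of them lower, against 9.69%, 2.97% and 10.7% of features in either direction. The median of these 38 genes with LBP was -0.201 in non-irradiated cells, with 35 below 0, and -0.169 over the mean, with 36 below 0. Markers of simple and mucosal epithelium summed to 2690 to 3090 FPKM in irradiated LBP libraries and 3130 to 3630 FPKM in irradiated vehicle libraries, and their part in the difference was not tested.

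**Figure D3:**
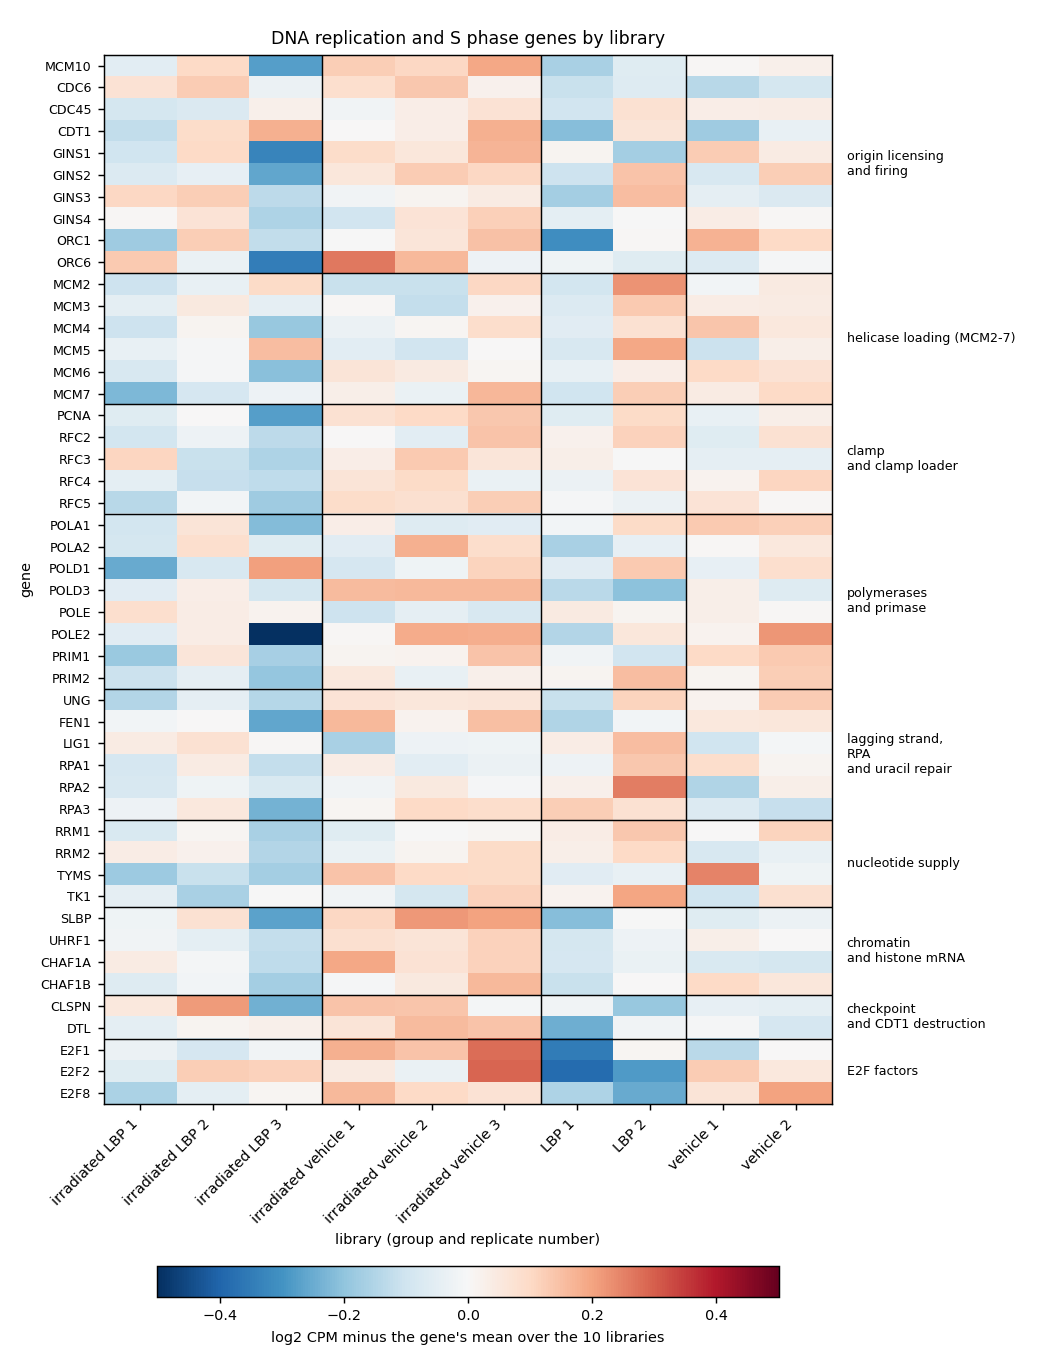
Heat map of log2 CPM minus each gene's mean over the 10 libraries (colour) for the 48 genes (rows, by role) in the 10 libraries (columns, by group and replicate). Irradiated LBP replicate 3 has the lowest median deviation over the 48 genes, at -0.13, and irradiated vehicle replicate 3 the highest, at 0.099.

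Among genes of origin licensing, none was called. ORC1, the largest subunit of the origin recognition complex, stood at 62.1, 76.3 and 64.4 CPM in irradiated LBP libraries, 70.1, 73.1 and 77.7 CPM in irradiated vehicle libraries, 56.6 and 70.5 CPM in LBP libraries and 79.2 and 75.2 CPM in vehicle libraries. The LBP libraries lay below both vehicle libraries, and the irradiated groups overlapped. The difference of LBP over vehicle was -0.28 ± 0.12 (adjusted p = 0.328). CDC6, which loads the helicase together with CDT1, stood at 299.8, 311 and 279 CPM in irradiated LBP libraries, 302, 313 and 289 CPM in irradiated vehicle libraries, 264 and 272 CPM in LBP libraries and 258 and 268 CPM in vehicle libraries. Every irradiated library lay above every non-irradiated one, at a difference of 0.17 ± 0.049 over the mean of both backgrounds (adjusted p = 0.235), 0.15 ± 0.069 in LBP cells and 0.19 ± 0.069 in vehicle cells. LBP groups overlapped with their vehicle groups. CDT1, which is destroyed once S phase begins, stood at 90.3, 105 and 111 CPM in irradiated LBP libraries, 98.4, 100.5 and 111 CPM in irradiated vehicle libraries, 84.9 and 103 CPM in LBP libraries and 87.03 and 95.9 CPM in vehicle libraries. Its irradiated vehicle libraries lay just above the vehicle libraries (0.18 ± 0.11, adjusted p = 0.809), and the other groups overlapped.

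None of the helicase subunits was called in any comparison. MCM2, a subunit of the MCM2-7 ring, stood at 314, 329 and 361 CPM in irradiated LBP libraries, 313, 312 and 363 CPM in irradiated vehicle libraries, 317 and 394 CPM in LBP libraries and 334 and 348 CPM in vehicle libraries. MCM5, another subunit of the ring, stood at 182, 186 and 208 CPM in irradiated LBP libraries, 180.4, 175 and 187 CPM in irradiated vehicle libraries, 177 and 214 CPM in LBP libraries and 174 and 191 CPM in vehicle libraries. All groups overlapped for both genes. Over the mean irradiation effect the 95% interval was -14.5% to 6.25% for MCM2 and -10.3% to 8.86% for MCM5, and over the mean LBP effect it was -7.69% to 14.8% and -3.19% to 17.5%. All 6 subunits had values below 0 for irradiation in both backgrounds, from -0.12 to -0.022 in LBP cells and from -0.073 to -0.012 in vehicle cells, none of them called.

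The factors that activate the helicase gave small values. CDC45 stood at 67.5, 68.05 and 72.9 CPM in irradiated LBP libraries, 70.7, 73.4 and 75.2 CPM in irradiated vehicle libraries, 66.98 and 75.5 CPM in LBP libraries and 73.3 and 73.5 CPM in vehicle libraries, with all groups overlapping. GINS2, a subunit of the GINS complex, stood at 54.98, 56.00 and 48.1 CPM in irradiated LBP libraries, 59.9, 63.01 and 61.9 CPM in irradiated vehicle libraries, 53.6 and 63.6 CPM in LBP libraries and 54.6 and 62.8 CPM in vehicle libraries. Its irradiated LBP libraries lay below all irradiated vehicle libraries (-0.22 ± 0.087, adjusted p = 0.177), while LBP and vehicle libraries overlapped (-0.0024 ± 0.11). The 10 genes of origin licensing and firing had a median of -0.099 for LBP in irradiated cells, with 9 below 0, and 0.070 for irradiation in vehicle cells, with 8 above 0.

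At the clamp, PCNA stood at 429, 448 and 370.2 CPM in irradiated LBP libraries, 471, 479 and 491 CPM in irradiated vehicle libraries, 429 and 478 CPM in LBP libraries and 437 and 456 CPM in vehicle libraries. Irradiated LBP libraries lay below irradiated vehicle libraries (-0.21 ± 0.076, adjusted p = 0.137), and the lowest of all was irradiated LBP replicate 3. With vehicle, irradiated libraries lay above non-irradiated ones (0.11 ± 0.085, adjusted p = 0.876). PCNA has processed pseudogene copies in the annotation, and how reads were divided among them is not given in the sources used here. RFC5, a subunit of the complex that loads the clamp, differed by -0.21 ± 0.065 for LBP in irradiated cells (adjusted p = 0.0905), with irradiated LBP libraries wholly below irradiated vehicle libraries. It differed by -0.054 ± 0.079 for LBP in non-irradiated cells (adjusted p = 0.812). All 5 genes of the clamp and its loader had values below 0 for LBP in irradiated cells, with a median of -0.14.

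Among polymerases, POLA1, the catalytic subunit of the polymerase that starts new strands with primase, stood at 59.5, 66.2 and 54.4 CPM in irradiated LBP libraries, 64.9, 60.6 and 60.9 CPM in irradiated vehicle libraries, 62.7 and 67.7 CPM in LBP libraries and 69.4 and 68.7 CPM in vehicle libraries. Irradiated vehicle libraries lay below both vehicle libraries (-0.15 ± 0.086, adjusted p = 0.784), and LBP libraries did too (-0.083 ± 0.094). POLE2, an accessory subunit of the leading-strand polymerase, stood at 24.2, 25.8 and 17.8 CPM in irradiated LBP libraries, 25.3, 28.6 and 28.5 CPM in irradiated vehicle libraries, 22.8 and 26.2 CPM in LBP libraries and 25.5 and 29.3 CPM in vehicle libraries. All its groups overlapped, and its lowest value was that of irradiated LBP replicate 3. POLD3, an accessory subunit of the lagging-strand polymerase, differed by -0.20 ± 0.064 with LBP in irradiated cells (adjusted p = 0.101) and differed by 0.18 ± 0.072 with irradiation in vehicle cells (adjusted p = 0.654). It was not called in either, and its groups did not overlap in any of the 4 comparisons. PRIM2, the large primase subunit, differed by -0.20 ± 0.079 with irradiation in LBP cells (adjusted p = 0.312).

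Of the 3 RPA subunits, which coat single-stranded DNA at forks and at resected breaks, RPA2 and RPA3 had opposite signs in the 2 backgrounds. RPA2 stood at 51.93, 54.0 and 52.07 CPM in irradiated LBP libraries, 54.19, 56.71 and 54.63 CPM in irradiated vehicle libraries, 55.79 and 65.47 CPM in LBP libraries and 49.42 and 55.98 CPM in vehicle libraries. Its irradiated LBP libraries lay below all irradiated vehicle libraries and below both LBP libraries, and the other groups overlapped. RPA2 differed by -0.20 ± 0.085 with irradiation in LBP cells (adjusted p = 0.332) and by 0.065 ± 0.085 in vehicle cells (adjusted p = 0.934). With LBP it differed by -0.067 ± 0.076 in irradiated cells and by 0.20 ± 0.093 in non-irradiated cells (adjusted p = 0.373). For RPA3 irradiation gave -0.16 ± 0.084 in LBP cells and 0.16 ± 0.085 in vehicle cells, and LBP gave -0.13 ± 0.076 in irradiated cells and 0.19 ± 0.093 in non-irradiated cells (adjusted p = 0.402). The interaction was -0.27 ± 0.12 for RPA2 (adjusted p = 0.602) and -0.32 ± 0.12 for RPA3 (adjusted p = 0.596), and neither was called. FEN1, the nuclease that trims Okazaki fragments, had values below 0 with LBP in irradiated cells (-0.20 ± 0.078, adjusted p = 0.168) and in non-irradiated cells (-0.13 ± 0.096, adjusted p = 0.578), with LBP libraries wholly below their vehicle counterparts in both. LIG1, the ligase that joins those fragments, had values above 0 in the same comparisons (0.11 ± 0.067 and 0.15 ± 0.082, adjusted p = 0.367 and 0.445), with LBP libraries wholly above. UNG, the uracil glycosylase, gave -0.17 ± 0.073 with LBP in irradiated cells (adjusted p = 0.195).

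For nucleotide supply, TYMS, which makes thymidylate, stood at 47.4, 49.8 and 47.9 CPM in irradiated LBP libraries, 59.5, 57.6 and 57.4 CPM in irradiated vehicle libraries, 51.7 and 52.4 CPM in LBP libraries and 63.8 and 52.9 CPM in vehicle libraries. Irradiated LBP libraries lay below all irradiated vehicle libraries, and LBP libraries lay below both vehicle libraries, 1 of them by a small margin. The mean LBP effect was -0.22 ± 0.059 (adjusted p = 0.0472), a fall with a 95% interval of -21.2% to -5.94%. In irradiated cells alone it was -0.27 ± 0.074 (adjusted p = 0.0639) and in non-irradiated cells -0.16 ± 0.091 (adjusted p = 0.451). The call over the mean was lost when any 1 library other than vehicle replicate 2 was left out, with adjusted p from 0.0511 to 0.182, the highest being without vehicle replicate 1, where the effect was -0.155. TYMS, a protein-coding gene on the plus strand of chromosome 18 (657604 to 673578 in GRCh38, GENCODE v29), overlaps ENOSF1 and TYMSOS on the other strand. ENOSF1 differed by -0.021 ± 0.084 over the mean LBP effect (adjusted p = 0.913), and whether counting used strand is not given in the sources used here.

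RRM1 and RRM2 encode the large and small subunits of ribonucleotide reductase. RRM1 stood at 299, 318 and 282 CPM in irradiated LBP libraries, 303, 316 and 318 CPM in irradiated vehicle libraries, 324 and 346 CPM in LBP libraries and 316 and 341 CPM in vehicle libraries. Irradiated LBP libraries lay below both LBP libraries (-0.16 ± 0.072, adjusted p = 0.358). RRM2 stood at 307, 304 and 271 CPM in irradiated LBP libraries, 292, 302 and 320.1 CPM in irradiated vehicle libraries, 305 and 321 CPM in LBP libraries and 283 and 292 CPM in vehicle libraries. Its LBP libraries lay above both vehicle libraries (0.12 ± 0.081, adjusted p = 0.535), irradiated vehicle libraries lay just above both vehicle libraries (0.085 ± 0.074), and the irradiated groups overlapped (-0.052 ± 0.066).

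None of the genes that act on chromatin behind the fork was called. SLBP, which binds the stem-loop of histone mRNA, stood at 91.5, 98.1 and 77.3 CPM in irradiated LBP libraries, 99.7, 108 and 107 CPM in irradiated vehicle libraries, 80.1 and 92.8 CPM in LBP libraries and 89.03 and 91.05 CPM in vehicle libraries. Irradiated vehicle libraries lay above vehicle libraries (0.22 ± 0.10, adjusted p = 0.71) and above irradiated LBP libraries, the difference of irradiated LBP over irradiated vehicle being -0.24 ± 0.088 (adjusted p = 0.143). UHRF1, which recognises hemimethylated DNA, stood at 117, 115 and 109 CPM in irradiated LBP libraries, 126, 124 and 128 CPM in irradiated vehicle libraries, 112 and 117 CPM in LBP libraries and 121 and 119 CPM in vehicle libraries. LBP libraries lay below their vehicle counterparts with radiation (-0.15 ± 0.056, adjusted p = 0.147) and without (-0.071 ± 0.068, adjusted p = 0.686). CHAF1A, a subunit of the chromatin assembly factor that works with PCNA, stood at 83.2, 80.4 and 74.1 CPM in irradiated LBP libraries, 92.4, 85.02 and 87.5 CPM in irradiated vehicle libraries, 76.2 and 78.95 CPM in LBP libraries and 76.7 and 76.00 CPM in vehicle libraries. Irradiated vehicle libraries lay above all others, at 0.21 ± 0.072 over vehicle (adjusted p = 0.581), and irradiated LBP over irradiated vehicle gave -0.16 ± 0.064 (adjusted p = 0.184).

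CLSPN, the adaptor through which ATR activates the checkpoint kinase CHK1, stood at 59.3, 66.2 and 48.5 CPM in irradiated LBP libraries, 63.2, 63.1 and 56.8 CPM in irradiated vehicle libraries, 56.5 and 50.2 CPM in LBP libraries and 55.6 and 55.4 CPM in vehicle libraries. Irradiated vehicle libraries lay above both vehicle libraries (0.14 ± 0.11, adjusted p = 0.88), and the other groups overlapped. DTL, the receptor that brings CDT1 to a ubiquitin ligase on PCNA, stood at 69.00, 72.1 and 72.8 CPM in irradiated LBP libraries, 74.6, 79.8 and 78.7 CPM in irradiated vehicle libraries, 60.3 and 70.5 CPM in LBP libraries and 71.1 and 67.3 CPM in vehicle libraries. For DTL the irradiated vehicle libraries lay above both vehicle libraries (0.17 ± 0.079, adjusted p = 0.729) and above all irradiated LBP libraries. The difference of irradiated LBP over irradiated vehicle was -0.12 ± 0.070 (adjusted p = 0.323).

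The E2F factors included the other called gene. E2F8, a repressor that acts late in S phase, stood at 32.1, 34.5 and 36.04 CPM in irradiated LBP libraries, 40.04, 38.3 and 37.6 CPM in irradiated vehicle libraries, 32.2 and 30.04 CPM in LBP libraries and 37.5 and 41.1 CPM in vehicle libraries. LBP libraries lay below vehicle libraries with and without radiation. The mean LBP effect was -0.26 ± 0.057 (adjusted p = 0.0217), a fall with a 95% interval of -23.2% to -8.79%, made up of -0.18 ± 0.072 in irradiated cells (adjusted p = 0.183) and -0.34 ± 0.088 in non-irradiated cells (adjusted p = 0.123). The call was lost without vehicle replicate 2 (-0.22, adjusted p = 0.103), LBP replicate 2 (-0.24, adjusted p = 0.0765) or irradiated vehicle replicate 1 (-0.24, adjusted p = 0.0630). E2F8 is a protein-coding gene on the minus strand of chromosome 11, from 19224063 to 19241620 in GRCh38.

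E2F1, an activator at the start of S phase, stood at 29.96, 28.8 and 30.1 CPM in irradiated LBP libraries, 34.6, 33.8 and 37.05 CPM in irradiated vehicle libraries, 23.99 and 30.7 CPM in LBP libraries and 27.8 and 30.6 CPM in vehicle libraries. Irradiated vehicle libraries lay above all others, at 0.26 ± 0.10 over vehicle (adjusted p = 0.634), and irradiated LBP over irradiated vehicle gave -0.25 ± 0.091 (adjusted p = 0.143). E2F2, another activator and the lowest of the 48 genes per length, stood at 27.2, 30.9 and 30.8 CPM in irradiated LBP libraries, 29.3, 27.8 and 34.8 CPM in irradiated vehicle libraries, 21.8 and 23.4 CPM in LBP libraries and 31.1 and 29.5 CPM in vehicle libraries. The LBP libraries lay below every other library. LBP over vehicle was therefore -0.42 ± 0.12 (adjusted p = 0.135) and irradiated LBP over LBP 0.39 ± 0.11 (adjusted p = 0.236), and both rest on the same 2 libraries. The irradiated groups overlapped, at -0.048 ± 0.093, and the interaction was 0.37 ± 0.15 (adjusted p = 0.596).

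**Figure D4:**
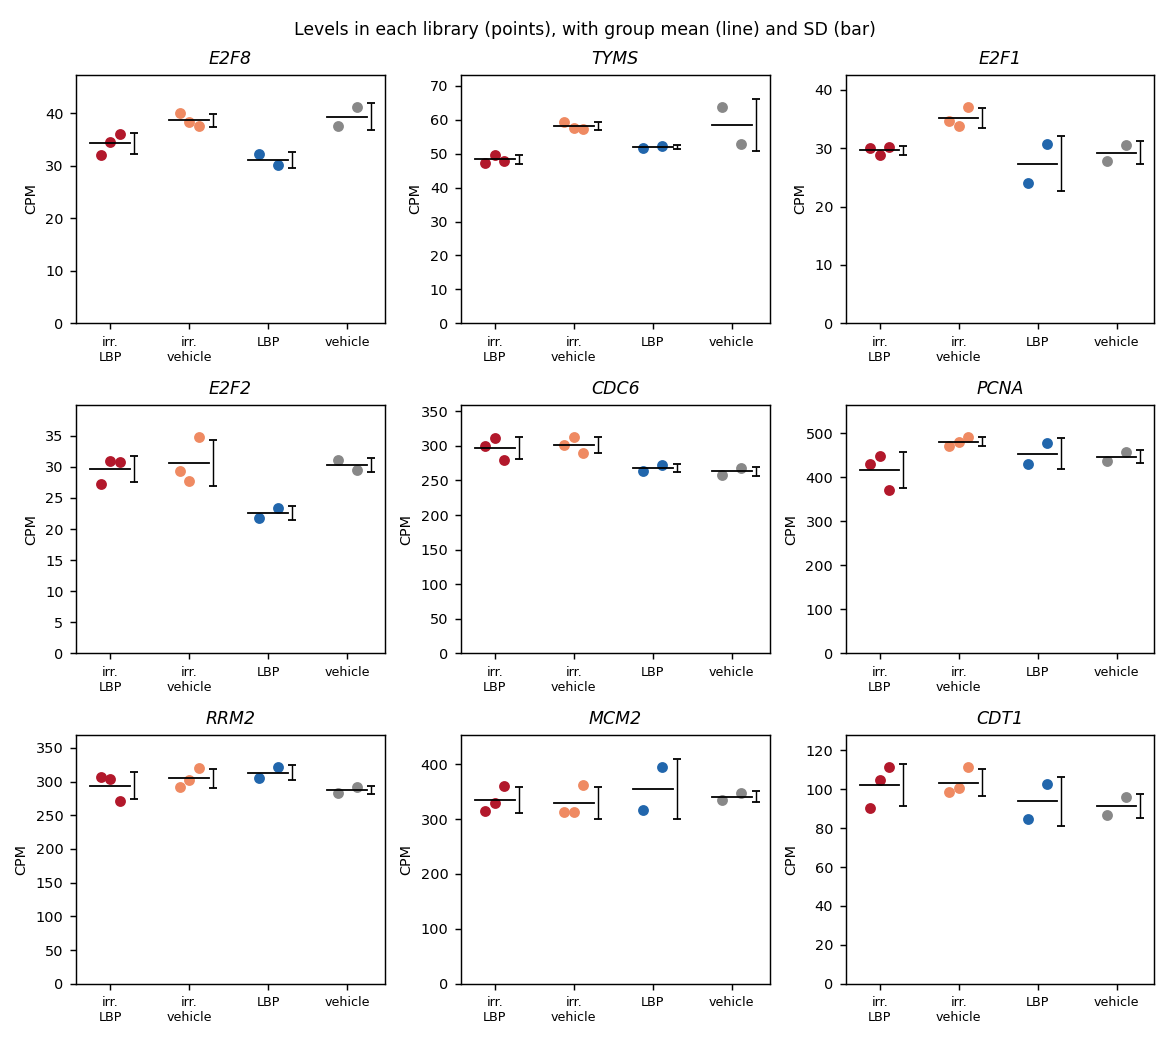
CPM (y axis, from 0) of 9 of the genes in each library (points) by group (x axis), with the group mean as a line and the SD as a bar (n = 3, 3, 2 and 2). E2F8 and TYMS lie lower with LBP in both settings, E2F2 is low in the LBP group only, CDC6 is higher in both irradiated groups, and MCM2 overlaps between all groups.

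Genes with and without E2F letters in their promoter window had similar medians. For the mean LBP effect the median was -0.10 in the 23 genes with such letters and -0.080 in the 18 without. For the mean irradiation effect it was -0.010 in those with letters and -0.020 in those without. Windows were not available for E2F8 and 6 other genes.

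Of 74 other genes of the pathway, all tested, 2 fell with irradiation in vehicle cells and none rose, against 0.439% of all features called, at a median of 0.019. TICRR, which helps to load CDC45 at origins, averaged 45.1 ± 1.48 CPM in irradiated vehicle cells and 63.8 ± 5.45 CPM in vehicle cells, a change of -0.50 ± 0.085 (adjusted p = 0.0234). CCNA2, the cyclin of S phase and G2, averaged 102 ± 1.85 CPM in irradiated vehicle cells and 134 ± 5.28 CPM in vehicle cells (-0.39 ± 0.071, adjusted p = 0.0379). Both also fell over the mean irradiation effect (CCNA2 -0.33 ± 0.050, adjusted p = 0.00769; TICRR -0.31 ± 0.060, adjusted p = 0.0462). In vehicle cells the calls were lost in 9 of 21 alternative settings for TICRR, among them leaving out any library of the 2 groups compared, and in 13 of 21 for CCNA2, among them leaving out any library outside the irradiated LBP group. Over the mean the calls were lost in 15 of 20 settings for TICRR, among them leaving out any library other than irradiated LBP replicate 2, and in 5 of 20 for CCNA2, among them leaving out vehicle replicate 1 or LBP replicate 2. In vehicle cells the values ranged from -0.575 to -0.41 for TICRR and from -0.42 to -0.35 for CCNA2. WEE1, the kinase that restrains CDK1, gave -0.41 ± 0.079 (adjusted p = 0.0524), and was called lower in 6 of 21 alternative settings, DESeq2 among them (adjusted p = 0.000754). In LBP cells 0 of 74 were called (median -0.042), against 0.142% of features. There, 1 was higher and 8 were lower at an unadjusted p under 0.05, against 6.62% and 6.91%, and DESeq2 called 2 lower, against 1.7% in either direction. The smallest p-values there belonged to POLE4 (-0.37 ± 0.093), CCNA2 (-0.27 ± 0.071) and ZNF367 (0.32 ± 0.090).

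The cyclins of the G1 to S boundary gave positive values with irradiation that did not pass edgeR's test on the reported settings. CCNE2 averaged 18.1 ± 2.09 CPM in irradiated vehicle cells and 10.48 ± 1.64 CPM in vehicle cells (0.78 ± 0.19, adjusted p = 0.17; DESeq2 adjusted p = 0.00435), and was called in 5 of 21 alternative settings. CCNE1 gave 0.45 ± 0.13 (adjusted p = 0.378) and the phosphatase gene CDC25A 0.25 ± 0.087 (adjusted p = 0.591). In LBP cells the same 3 genes gave 0.10, 0.28 and 0.073. ZNF367 gave 0.32 ± 0.064 over both backgrounds (adjusted p = 0.052), and was called higher in 9 of 20 alternative settings, DESeq2 among them (adjusted p = 0.00162).

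With LBP in irradiated cells, 2 of the 74 fell and none rose, at a median of -0.072, against 4.36% of features called. Of the 74, 55 lay below 0 (74.3%, against 48.9% of all features). The unadjusted p was under 0.05 for 16 lower and 2 higher genes, against 9.98% and 11.7% of features. DESeq2 called 7 lower and 0 higher, against 9.69% in either direction. DUT, which removes dUTP from the nucleotide pool, averaged 147 ± 6.61 CPM in irradiated LBP cells and 177 ± 9.66 CPM in irradiated vehicle cells (-0.27 ± 0.061, adjusted p = 0.0317). GMNN, the inhibitor of CDT1, averaged 40.2 ± 3.25 CPM in irradiated LBP cells and 51.6 ± 3.28 CPM in irradiated vehicle cells (-0.36 ± 0.089, adjusted p = 0.0435), and SKP2, a ubiquitin ligase subunit, gave -0.27 ± 0.073 (adjusted p = 0.0621). The calls of DUT and GMNN were lost in 9 and 11 of 21 alternative settings, among them leaving out any irradiated vehicle library or irradiated LBP replicate 1 or 3, and for GMNN also leaving out either vehicle library. Their values ranged from -0.302 to -0.225 for DUT and from -0.43 to -0.31 for GMNN. In non-irradiated cells 0 of 74 were called (median -0.021), against 0.804% of features. Of these, 5 were higher and 6 lower at an unadjusted p under 0.05, near the 6.97% and 6.56% of features, and DESeq2 called 0, against 2.97%. The smallest p-values belonged to POLE4 (0.30 ± 0.10), CCNE2 (0.57 ± 0.20) and POLD4 (0.32 ± 0.12).

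Over the mean LBP effect 3 of the 74 fell and 1 rose, at a median of -0.036, near the 2.93% and 3.99% of all features called lower and higher. The unadjusted p was under 0.05 for 14 lower and 3 higher genes, against 10.6% and 12.6% of features. DESeq2 called 7 lower and 2 higher, against 10.7% of features in either direction. NASP, a histone chaperone, gave -0.23 ± 0.058 (adjusted p = 0.0319), SKP2 -0.22 ± 0.058 (adjusted p = 0.0446) and the origin recognition subunit ORC2 -0.21 ± 0.057 (adjusted p = 0.0456). RBL2, a relative of the retinoblastoma protein that holds E2F targets off in resting cells, rose by 0.23 ± 0.061 (adjusted p = 0.0447). These calls were lost in 10 of 20 alternative settings for NASP, 12 for SKP2, 12 for ORC2 and 14 for RBL2. For all 4 genes these included leaving out either vehicle library, LBP replicate 1, irradiated vehicle replicate 1 or 2, or irradiated LBP replicate 1. They also included LBP replicate 2 for all but RBL2, irradiated vehicle replicate 3 and irradiated LBP replicate 3 for all but NASP, and irradiated LBP replicate 2 for RBL2. The values ranged from -0.275 to -0.153 for NASP, from -0.247 to -0.135 for SKP2, from -0.26 to -0.18 for ORC2 and from 0.15 to 0.29 for RBL2.

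Deviations of some libraries from their group mean moved with the GC content of transcripts, and the part of GC content in the differences was tested only by the refit given here. The 48 genes ran from 39.0% to 66.0% GC with a median of 50.2%, the same as that of 13210 tested genes. Across the 48 genes, the deviation of irradiated LBP replicate 3 from its group mean had a Spearman correlation with GC content of 0.598, and that of irradiated LBP replicate 2 one of -0.532. Irradiated LBP replicate 1 gave -0.292, and irradiated vehicle replicates 1, 2 and 3 gave -0.1, -0.417 and 0.397. The LBP libraries gave -0.439 and 0.439 and the vehicle libraries -0.218 and 0.218, each pair being mirror images because the group holds 2 libraries. These are correlations across genes of 1 library, and genes are not replicates. With the GC trend of each library removed, a setting chosen after the data were seen, edgeR called 3 of the 48 lower with LBP in irradiated cells (RFC5, TYMS and E2F1), against 4.06% of the 13210 features in that fit called lower, and 5 over the mean LBP effect (POLD3, TYMS, E2F1, E2F2 and E2F8), against 5.57%. It called 0 with irradiation in LBP cells, against 0.394% in either direction, and 0 in vehicle cells, against 0.56%. The median for LBP in irradiated cells was -0.13 with the trend removed and -0.093 without irradiated LBP replicate 3.

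**Figure D5:**
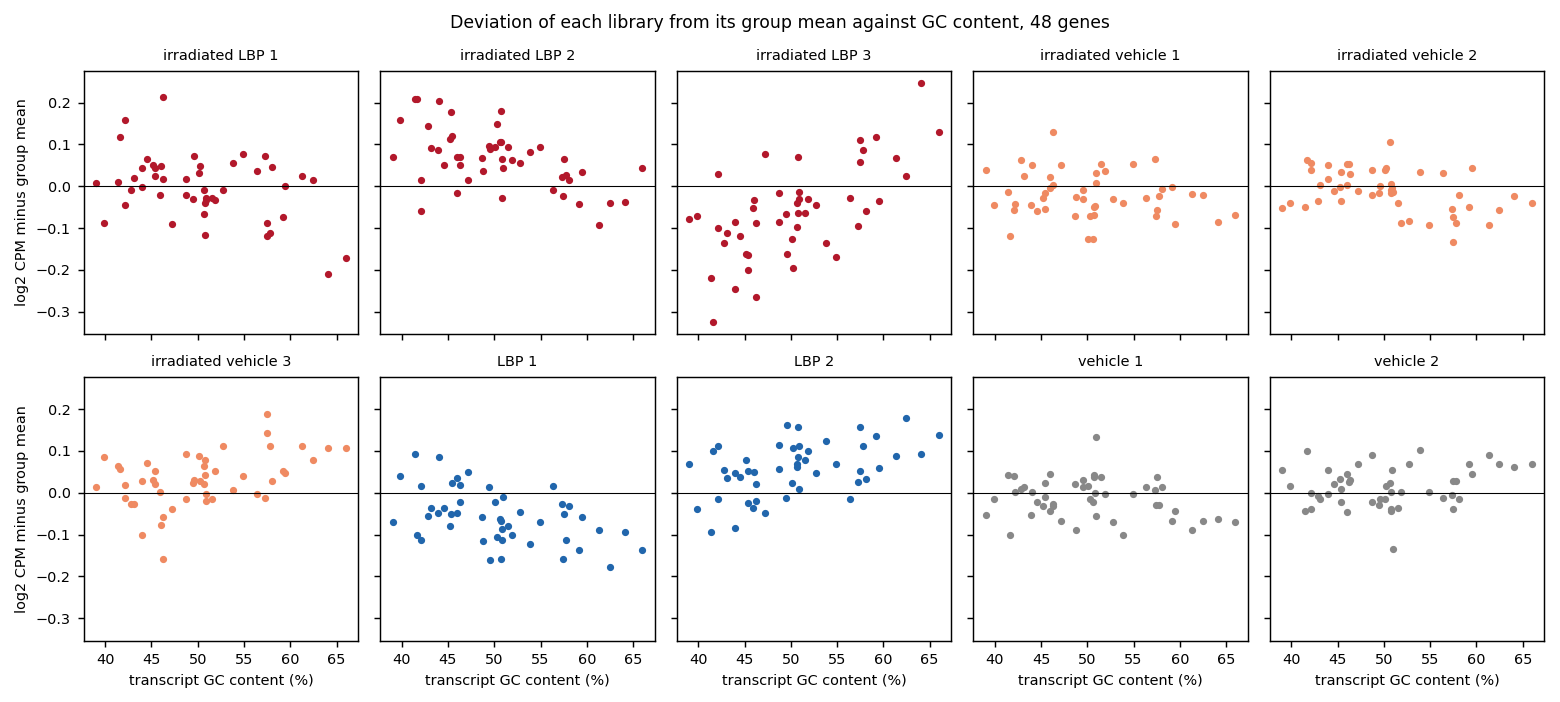
Deviation of each library's log2 CPM from its group mean (y axis) against transcript GC content in percent (x axis) for the 48 genes, 1 panel a library. The points rise with GC content in irradiated LBP replicate 3 (Spearman 0.598) and fall in irradiated LBP replicate 2 (-0.532).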

How the data were processed

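RNA from 10 libraries was sequenced, and groups were taken from the labels alone. Per the submitters' processing notes, HISAT2 and GRCh38 were used. Which program counted reads, with which annotation and strand setting, is not given in the sources used here. Deposited by the authors were a table of whole-number counts per gene and a table of FPKM for the same genes. CPM were computed here from the deposited counts with TMM factors. The main test was edgeR 4.0.16 (R 4.3.3) on counts (filterByExpr with a minimum count of 10, TMM, glmQLFit and glmQLFTest with 1 mean per group in all 10 libraries, Benjamini-Hochberg over 14799 features), which gave each adjusted p for which no other tool is named. The spread rested on 6 residual and 6.06 prior degrees of freedom, and intervals are 95% t intervals of the fitted difference. Self-tests were run on simulated counts.

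Alternatives were DESeq2 1.42.0, limma 3.58.1 on log2(FPKM + 0.1) and log2(FPKM + 1), other scaling and filters, a replicate block, only the groups compared, a 2-fold minimum, and each library left out; a fit with each library's GC trend removed was added after the data were seen. Where 1 library was left in a group, it was assumed to vary like the other groups. Libraries with the same number in different groups were not treated as pairs, since the labels tie them to no shared culture and the correlations of their deviations ran from -0.146 to 0.106. No library repeated another within counting noise (chi-square per degree of freedom 10.3 to 35.7 between replicates).

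The genes, the gene lists and the promoter letters were chosen with earlier results of these data known. Values by library are given for called genes and a fixed set of 20 genes, RPA2 being added after its values were seen. Fitted values are also given for the 5 genes with the smallest p in each of the 4 comparisons. Those of FEN1, LIG1 and UNG are given outside these rules. Of the other pathway genes, those called, the 3 with the smallest p in each comparison and CCNE1, CCNE2, CDC25A and GMNN are described. Promoter sequences are RefSeq's; transcript GC content and positions come from GENCODE v29.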

Additional observations from a re-analysis of the deposited data

How the results depend on the processing

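Of 151 recomputed counts of called genes, 123 were 0 where the reported count was 0, which says little about stability. Of the 21 in the contrast with a reported count above 0, the mean LBP effect, 7 lay within 1.5 times of it. Of 144 recomputed medians, 14 changed sign; most reported medians are smaller than the SD between libraries of a group (0.0639). DESeq2 called 1 of the 48 genes for irradiation in LBP cells, 2 for LBP in irradiated cells, 2 for LBP in non-irradiated cells, 1 for the mean irradiation effect and 4 for the mean LBP effect; the cause was not tested. For the mean LBP effect, limma on log2(FPKM + 0.1) without a filter called 1, E2F8, and a 2-fold minimum left 0. Removing the GC trend gave 3 for LBP in irradiated cells and 5 for the mean LBP effect. Leaving out 1 library gave 0 to 1 for LBP in irradiated cells (TYMS, without either vehicle library) and 0 to 5 for the mean LBP effect, 0 without irradiated vehicle replicate 1 and 5 without irradiated LBP replicate 2 (MCM10, GINS1, POLD3, PRIM1 and E2F8). It moved the median from -0.11 to -0.000698 for irradiation in LBP cells, from -0.107 to 0.0289 for LBP in non-irradiated cells and from -0.135 to -0.0197 for the interaction, the outer values lying at LBP replicate 1 or 2. The replicate block changed no count of the 48 genes: 2 were called for the mean LBP effect (TYMS and E2F8), with a median of -0.0938, and 0 in the other contrasts. Among the other pathway genes named it ended the calls of TICRR and CCNA2 in vehicle cells and of TICRR over the mean irradiation effect, and added SKP2 for LBP in irradiated cells and POLD4 for the mean LBP effect. Groups of 2 and 3 libraries limit the precision, and no smallest detectable change was computed.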
